A study of Homo sapiens with 9 samples.

Results

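The translation factors described here are the mRNAs of the proteins that start and extend polypeptide chains on cytosolic ribosomes, together with the enzymes that modify those proteins. The members are the protein-coding genes whose symbols belong to the EIF1 to EIF6 families or begin with EEF1 or EEF2, without the EIF2AK kinases, and whose level averaged at least 1 CPM over the 9 libraries. CPM is a gene's count per 1000000 counts of its library, after scaling by edgeR's TMM factor. Of 67 coding genes with such symbols 62 were members, out of 62710 genes in the table. The limit left out 5 genes, of which EIF4EBP3 averaged 0.309 CPM and EEF1G 0.0017 CPM; the lowest member was EEF1AKMT4 at 2.36 CPM. All 62 members had enough counts to be tested.

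All RNA was taken from 1 established line of human embryonic stem cells, H9, with a wild-type genotype. Every culture grew on a silicone (PDMS) plate coated with Matrigel, first for 72 h in mTeSR1, a medium for pluripotent cells, and then for 48 h in N2B27 with the inhibitors SB431542 and LDN, which block TGF-beta and BMP receptors and so start neural induction. The plate was then, still under both inhibitors and for 24 h, bent to a concave shape, bent to a convex shape, or kept flat. Each shape has 3 libraries with replicate numbers 1 to 3, and the labels do not tell whether the 3 were cultured separately. The p-values therefore describe the spread among these libraries and nothing wider, and that spread may be technical.

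In initiation, eIF2 brings the first tRNA to the small ribosomal subunit, eIF3 and eIF1 keep that subunit ready, and eIF4F, made of the cap-binding eIF4E, the scaffold eIF4G and the helicase eIF4A, loads it onto the mRNA. In elongation, eEF1A delivers each tRNA, the eEF1B subunits recharge eEF1A with GTP, and eEF2 moves the ribosome along. Many mRNAs of ribosomal proteins and of elongation factors begin with a 5′ terminal oligopyrimidine (TOP) tract, a C followed by a run of C and T, through which mTOR signalling and LARP1 control their translation.

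The starts of 7 members show the difference between TOP and other mRNAs. Each line gives 5 bases before the RefSeq transcription start and 20 bases from it on the gene's own strand, and capitals mark a run of C at the start itself followed by at least 4 bases that are each C or T. The first 5 are the members of the TOP list that matched an entry, and EIF3J and EIF4A1 are given as members without such a start that the results below turn on.
EEF1A1: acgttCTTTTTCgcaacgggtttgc
EEF1B2: cgggtCCTTTTTCCTCTCTTCagcg
EEF2: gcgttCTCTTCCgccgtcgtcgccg
EIF3F: gcctcCTTCTTTCTCgacaagatgg
EIF4B: cgggtCTTTTgcgttctctttccct
EIF3J: gtgctaactcctcgctagctctccc
EIF4A1: tccgccctagtttctaaggatcatg
In RefSeq on GRCh38.p14 these lie at chr6:73521013-73521037 on the minus strand for EEF1A1, chr2:206159890-206159914 on the plus strand for EEF1B2, chr19:3985444-3985468 on the minus strand for EEF2, chr11:7987332-7987356 on the plus strand for EIF3F and chr12:53006451-53006475 on the plus strand for EIF4B. EIF3J lies at chr15:44537142-44537166 and EIF4A1 at chr17:7572820-7572844, both on the plus strand.

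A start of C followed by at least 4 bases that are each C or T was found for 13 of the 49 members that matched an entry. Among these, EEF1B2 and EIF2S3B each have a second listed start without one. The other members with such a start were EIF2A, EIF2D, EIF2S3, EIF2S3B, EIF3D, EIF3K, EIF3M and EIF4A2. The same start, on the gene's own strand, was found for 877 of the 12411 tested coding genes with an entry (7.07%) and in 4.07% of all 35116 RefSeq windows. Since 79.0% of the members had an entry, under the 80% set for such a check, the comparison of starts over the members is void and the counts only describe these 49. The comparisons below therefore use a list of 9 known TOP mRNAs, of which all but EEF1G are members: EEF1A1, EEF1B2, EEF1D, EEF2, EIF3E, EIF3F, EIF3H and EIF4B.

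Libraries held between 49420082 and 64763412 counts. Flat library 2 stood apart: mRNAs of the 85 cytosolic ribosomal proteins had a median log2 deviation of 1.03 from their 9-library mean there, against -0.34 to 0.24 in the other libraries, and transcripts over 4000 bases had one of -0.38, against -0.067 to 0.12. The libraries numbered 3 also stood apart: 17.9% of the 23075 genes tested passed edgeR's test between them and the other 6. Of 8 pluripotency markers 7 were called higher in number 3, with a summed level of 3565 to 3692 CPM against 2286 to 2623 CPM in numbers 1 and 2, and NANOG was at most 0.475 CPM in every library. Of 7 tested neural ectoderm markers 4 were called lower there, with a sum of 766 to 923 CPM against 1119 to 1270.3 CPM. SOX2 and OTX2 were abundant throughout, and SIX3 ranged from 22.4 to 199.9 CPM. The others were low: ZIC1 was at most 14.5, PAX6 at most 7.10, SOX1 at most 4.91, LHX2 at most 4.20 and SIX6 at most 0.248 CPM. Among markers of other cells, TP63, TFAP2A, SOX17, COL3A1 and LUM were each at most 0.207 CPM, and MIXL1, DLX5 and GATA3 at most 0.510 CPM. FOXA2 ranged from 0.0589 to 10.5 CPM, CDH5 from 0.563 to 3.14, PECAM1 from 0.370 to 1.83 and TBXT from 0.521 to 1.61 CPM. COL1A1 ranged from 462 to 1401 CPM and PDGFRB from 13.6 to 40.6 CPM. The epithelial keratins ranged from 216 to 397 CPM for KRT8, 104 to 275 for KRT19 and 59.5 to 172 for KRT18. The 10 mesoderm, endoderm, fibroblast and endothelial markers summed to 938 to 1427 CPM in number 3 against 492 to 1102 CPM in numbers 1 and 2, with 3 of 7 tested called higher and 3 lower. Of 4 tested non-neural ectoderm markers 1 was called higher, with a sum over 7 markers of 628 to 716 CPM against 402 to 801 CPM. In bulk RNA, fewer cells of a type and less RNA per cell cannot be told apart.

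The elongation factors EEF1A1 and EEF2 had the highest levels per length, while the 5 elongation factors reached down to 23.3 CPM per kb for EEF1A2. Level per length is CPM per kb of the median principal transcript in GENCODE v29, whose lengths may not be those used in these cells. EEF1A1 (ENSG00000156508, chromosome 6, 73515750 to 73523797 in GENCODE v29 on GRCh38), which delivers tRNAs to the ribosome, averaged 2626 CPM per kb over the 9 libraries. EEF2 (ENSG00000167658, chromosome 19, 3976056 to 3985469), the translocase, followed at 914 CPM per kb, ahead of EIF4G2, an eIF4G relative that lacks the eIF4E-binding part, at 530.5 CPM per kb. The lowest were EIF5A2 at 0.789 and EIF4E3, a cap-binding relative, at 1.12 CPM per kb. Of the 62 members 30 averaged at least 100 CPM and 9 averaged under 10 CPM. The summed level of all members lay between 16515 and 21528 CPM in a library. Among members of at least 5 CPM the median coefficient of variation over the 9 libraries was 17.3%, against 19.1% for all tested genes of that level.

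Many paralogs were unequal on the same scale, but not all. EIF4EBP1 stood at a median of 119% of EIF4EBP2 and EIF1B at a median of 73.9% of EIF1. EIF4E2 stood at 652% to 1117% of EIF4E and EIF4G2 at 332% to 513% of EIF4G1. EEF1A2, the eEF1A form of adult muscle and neurons, stood at 0.573% to 1.25% of EEF1A1 per kb in every library. EIF5A2 stood at 0.127% to 0.404% of EIF5A, the factor that carries hypusine and helps the ribosome past difficult stretches. EIF4G3 stood at 16.6% to 40.3% of EIF4G1 and EIF4A3, the helicase of the exon junction complex, at a median of 32.3% of EIF4A2. Of the eIF2 subunits, EIF2S1 (alpha) stood at 13.4% to 17.1% and EIF2S2 (beta) at 36.5% to 51.9% of EIF2S3 (gamma) per kb, although the 3 proteins form 1 complex.

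**Figure D1:**
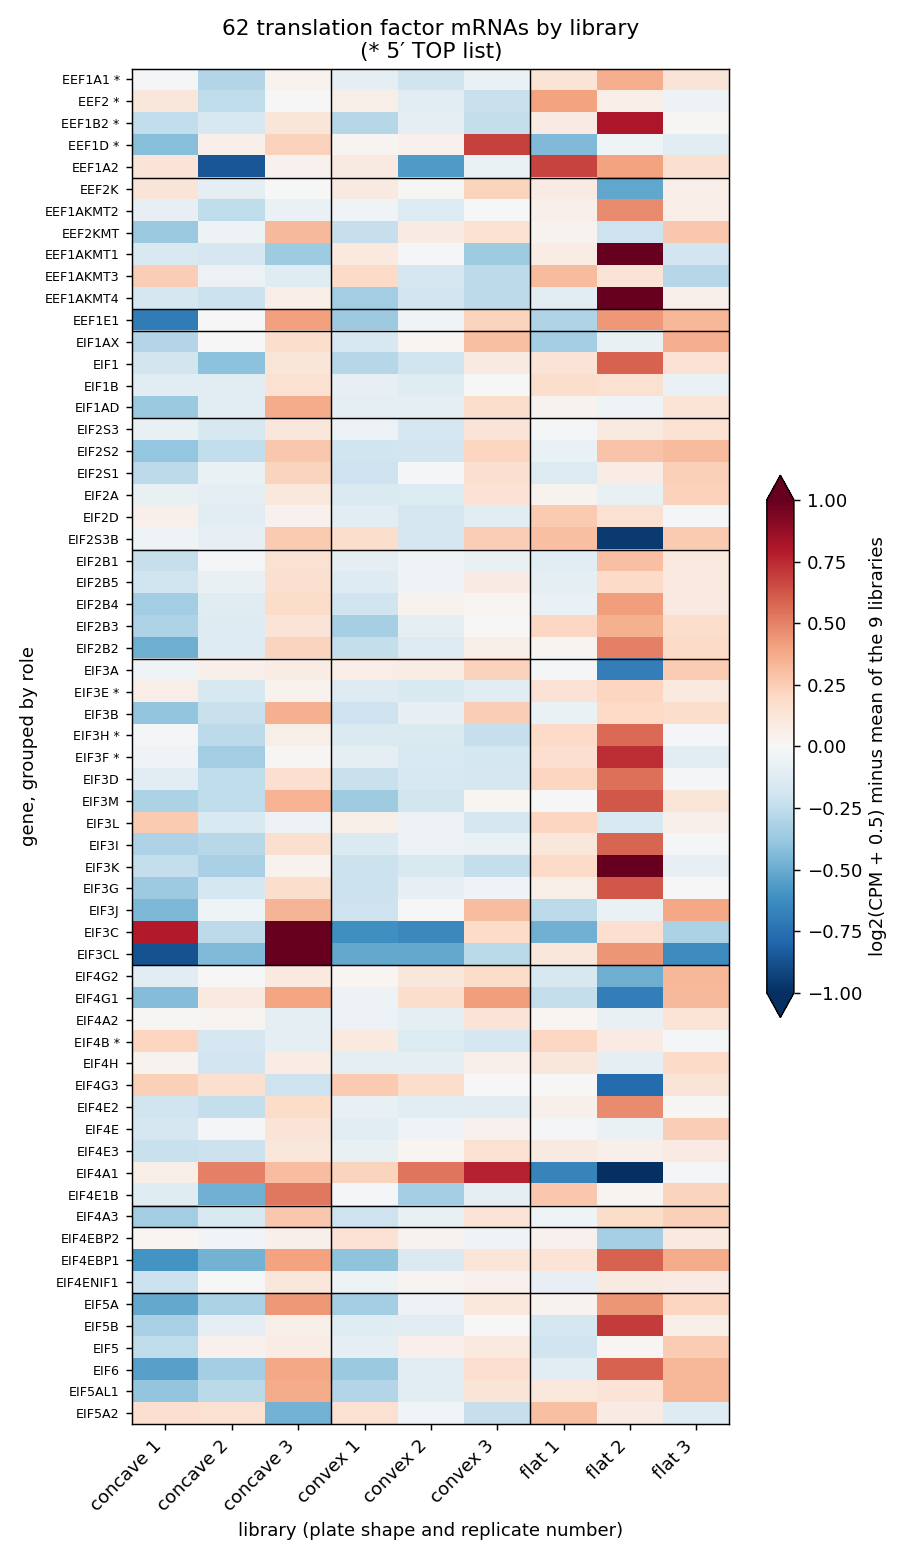
Level of each of the 62 members in each library, as log2(CPM + 0.5) minus the gene's mean over the 9 libraries; columns are concave, convex and flat libraries 1 to 3, rows are genes grouped by role, asterisks mark the TOP list, and colours are clipped at -1 and 1. Flat 2 holds the highest value for 25 members and the lowest for 8, and 8 of the 14 eIF3 rows are highest there.

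The question put to the plate shapes was whether bending alters these mRNAs. No member passed the test between any pair of shapes, but most stood lower on bent plates than on flat ones. EEF1A1 had 5935, 4907 and 6141 CPM in concave libraries 1 to 3 and 5626, 5228 and 5716 CPM in convex libraries, against 6584, 7728 and 6569 CPM in flat libraries. All 6 bent libraries lay below all 3 flat ones, the bent mean being 5661 ± 661 CPM for concave and 5524 ± 259.5 CPM for convex, against 6960.4 ± 665 CPM for flat (SD, n = 3 each). The log2 fold change was -0.30 (SE 0.17, edgeR adjusted p = 0.841) for concave and -0.33 (SE 0.17, edgeR adjusted p = 0.513) for convex against flat. Without flat 2, the highest library for EEF1A1, these were -0.21 and -0.26.

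The other elongation factors of the TOP list were less even. EEF2 had 3098, 2406 and 2855 CPM in concave and 2987, 2657 and 2459 CPM in convex libraries, against 3784, 3008 and 2773 CPM in flat ones, and the shapes overlapped. EEF1B2, the eEF1B subunit beta that exchanges the nucleotide on eEF1A, had 299, 318 and 386 CPM in concave and 291, 332 and 301 CPM in convex libraries, against 376, 623 and 359 CPM in flat ones. Its flat value was set by flat 2: the log2 fold change of convex against flat was -0.56 (SE 0.22) with that library and -0.26 without it, and that of concave against flat -0.44 (SE 0.22) and -0.13. EEF1D, the eEF1B subunit delta, lay in the other direction, with 73.6, 103 and 116 CPM in concave and 101, 102 and 159.8 CPM in convex libraries, against 72.8, 96.1 and 91.4 CPM in flat ones (convex against flat, log2 fold change 0.48, SE 0.23, edgeR adjusted p = 0.513).

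Among the initiation factors of the TOP list, EIF3E had 417, 356 and 409 CPM in concave and 365, 359 and 369 CPM in convex libraries, against 440.3, 463 and 426 CPM in flat ones. Both bent groups lay wholly below the flat group. EIF3H had 228, 193 and 240.4 CPM in concave and 209, 209 and 197 CPM in convex libraries, against 264, 343 and 229.9 CPM in flat ones, so that only the convex group was clear of it. EIF3F and EIF4B overlapped between shapes: EIF3F had 213, 171 and 219.7 CPM in concave and 204, 196 and 192 CPM in convex libraries, against 245.2, 364 and 201 CPM in flat ones. EIF4B, which stimulates the helicase eIF4A, had 480.3, 368 and 387 CPM in concave and 442, 377 and 367 CPM in convex libraries, against 479, 439 and 408 CPM in flat ones. In each shape the library numbered 1 was the highest for EIF4B.

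**Figure D2:**
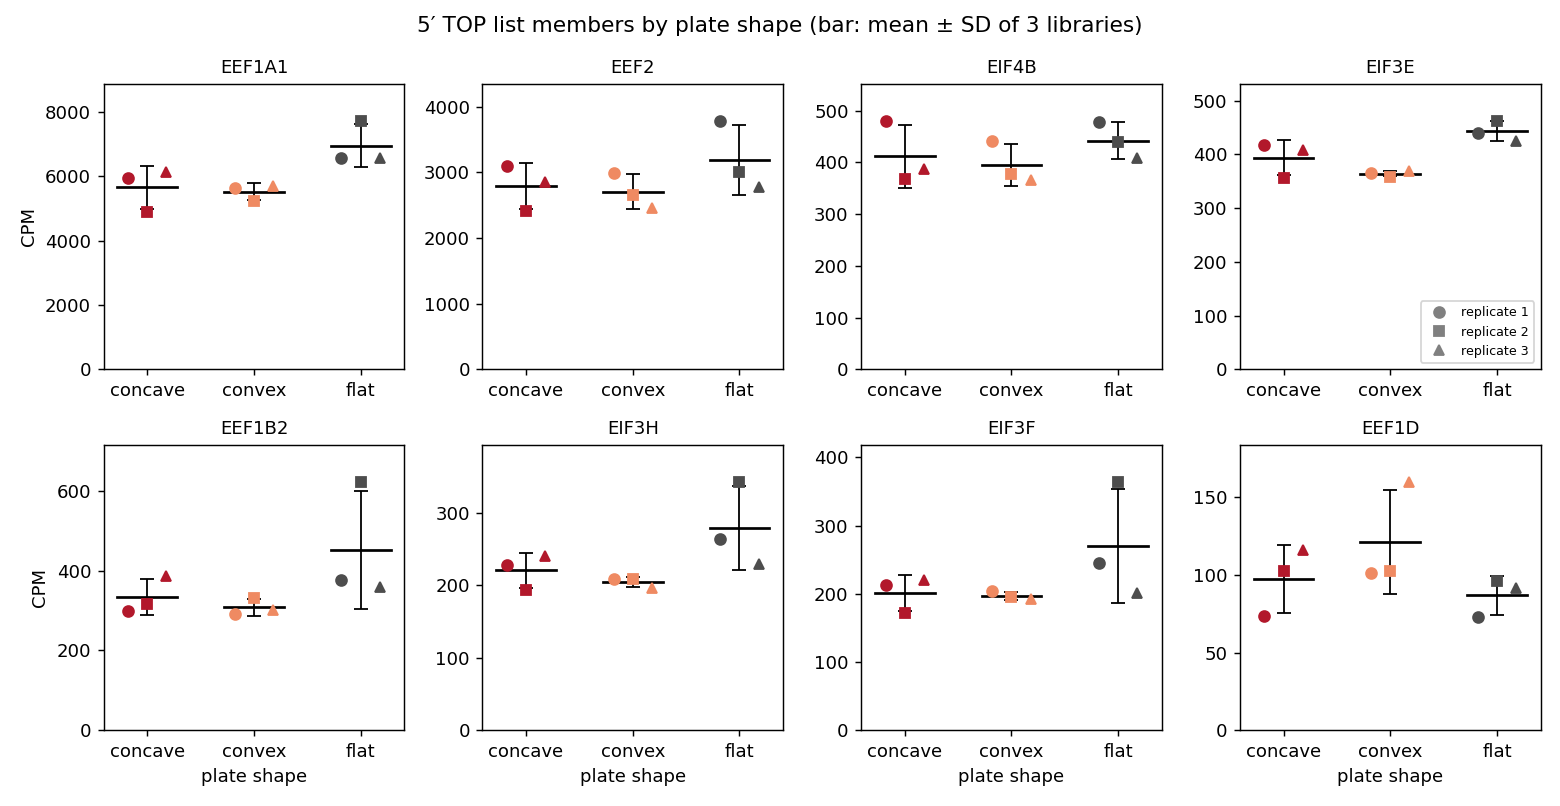
CPM of the 8 TOP list members by plate shape; each point is 1 library, its symbol the replicate number, and bars are the mean ± SD of 3 libraries, with the vertical axis from 0. In EEF1A1 and EIF3E all bent libraries lie below all flat ones, in EEF1B2, EIF3H and EIF3F the flat mean is drawn up by flat 2, and EEF1D is highest in convex 3.

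Of all 62 members 51 lay below flat in each comparison, and of all tested genes 48.4% for concave and 49.2% for convex. Most of the 14 eIF3 subunit mRNAs did so too, 11 for concave and 12 for convex, and none was called. Their median log2 fold change was -0.24 for concave and -0.35 for convex against flat, and -0.12 and -0.19 without flat 2. EIF3K, a small peripheral subunit, had 131, 124 and 159 CPM in concave and 133, 139.7 and 132 CPM in convex libraries, against 178, 316 and 146 CPM in flat ones. The highest value was that of flat 2, and the log2 fold change was -0.63 (SE 0.26, unadjusted p = 0.0341, edgeR adjusted p = 0.841) for concave and -0.66 (SE 0.26, unadjusted p = 0.0269, edgeR adjusted p = 0.513) for convex, and -0.22 and -0.27 without that library. EIF3D, the subunit that can itself bind a cap, had 191, 173 and 232 CPM in concave and 177, 185 and 184 CPM in convex libraries, against 239.7, 302 and 204 CPM in flat ones. Its convex group lay below the flat one (log2 fold change -0.45, SE 0.18, edgeR adjusted p = 0.513). EIF3A differed from the other subunits: flat 2 was its lowest library, at 321 CPM, the remaining libraries lying between 502 and 619 CPM.

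EIF3C and EIF3CL are near-identical copies on chromosome 16 (EIF3C at 28688558 to 28735730 on the plus strand, EIF3CL at 28379579 to 28403879 on the minus strand), so reads can be counted for either or be left out, and both rows are uncertain. EIF3C had 52.1, 24.8 and 68.5 CPM in concave and 19.4, 18.98 and 34.03 CPM in convex libraries, against 21.2, 33.7 and 23.9 CPM in flat ones. EIF3CL had 2.19, 3.11 and 31.04 CPM in concave and 2.94, 2.94 and 3.57 CPM in convex libraries, against 4.83, 6.17 and 2.67 CPM in flat ones. Concave 3 alone was high for EIF3CL, and the sum of both copies was 54.3, 27.9 and 99.5 CPM in concave libraries, 22.4, 21.9 and 37.6 CPM in convex ones and 26.1, 39.8 and 26.6 CPM in flat ones. EIF3C had a log2 fold change of 0.88 (SE 0.37, unadjusted p = 0.0356, edgeR adjusted p = 0.841) between concave and flat. That of EIF3CL was 1.41 (SE 0.83, edgeR adjusted p = 0.841) and turned to -0.79 without concave 3. The other 12 eIF3 mRNAs had values between 61.1 and 619 CPM.

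EIF4A1, a cap-dependent helicase and a main partner of eIF4G, was the member with the smallest p in both comparisons with flat, and it stood higher on bent plates. Its values were 8.51, 11.8 and 10.3 CPM in concave and 9.61, 12.1 and 14.3 CPM in convex libraries, against 4.96, 2.13 and 8.101 CPM in flat ones, with no overlap between either bent group and the flat one. The log2 fold change was 1.01 (SE 0.40, unadjusted p = 0.0304, edgeR adjusted p = 0.841) for concave and 1.24 (SE 0.40, unadjusted p = 0.0112, edgeR adjusted p = 0.513) for convex, and 0.65 and 0.87 without flat 2. The row is uncertain: 48.6% of its exon bases in GENCODE v29 are shared with another gene on the same strand, and 13 rows of EIF4A1 pseudogenes together averaged 19.4 CPM, 214% of the gene's own 9.08 CPM. The read-through gene SENP3-EIF4A1, at 0.603 CPM on average, had 0.467, 0.736 and 0.601 CPM in concave and 0.456, 0.775 and 1.23 CPM in convex libraries, against 0.344, 0.189 and 0.629 CPM in flat ones. The part of shared exons and copies in the EIF4A1 difference was not tested. EIF4A2, the closest paralog, had 435, 439 and 403 CPM in concave and 413, 406 and 472 CPM in convex libraries, against 436, 409 and 473 CPM in flat ones.

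Shared exons touched other members too. Of the 62 members 13 share exon bases with another gene on the same strand, 3 of them over 20%: EIF4A1, EIF3L at 41.1% and EEF1AKMT4 at 26.3%. The low levels that left EEF1G and EIF4EBP3 out of the members go with the 2 highest shares of the genes that had counts: 99.9% of EEF1G exon bases and 73.4% of those of EIF4EBP3 lie also in another gene. EEF1G encodes the gamma subunit of eEF1B, a partner of EEF1B2 and EEF1D, and the part of the shared exons in its count was not tested. The 49 pseudogene rows of EEF1A1 summed to 279 CPM, 4.61% of the gene.

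**Figure D3:**
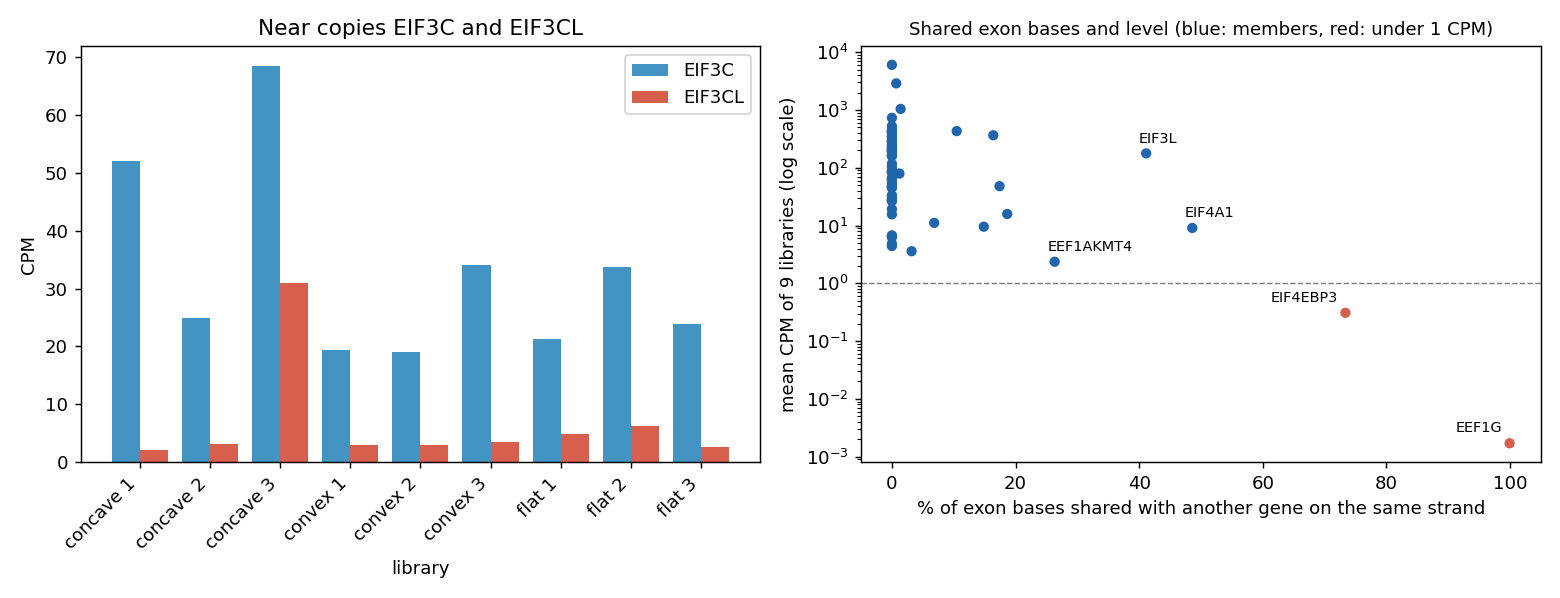
Left, CPM of EIF3C and EIF3CL in each library, with the axis from 0; right, mean CPM of 9 libraries on a log scale against the percentage of exon bases shared with another gene on the same strand, for the named coding genes with counts, blue for members and red for genes under 1 CPM (dashed line). Concave 3 has 31.04 CPM of EIF3CL, at least 5 times any other bar of that gene, and EEF1G and EIF4EBP3 lie at the right with 99.9% and 73.4% shared.

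None of the other eIF4F members and eIF4E inhibitors was called between shapes. EIF4G3, a further scaffold, had 223, 211 and 164 CPM in concave and 226, 213 and 189 CPM in convex libraries, against 188, 111 and 206 CPM in flat ones (convex against flat, log2 fold change 0.31, SE 0.23, edgeR adjusted p = 0.593). EIF4E, the cap-binding protein, had 70.2, 78.3 and 86.5 CPM in concave and 73.3, 76.7 and 81.5 CPM in convex libraries, against 77.9, 75.7 and 94.1 CPM in flat ones, and its inhibitor EIF4EBP2 ranged from 228 CPM in flat 2 to 317 CPM in convex 1. EIF4EBP1, the inhibitor best known as an mTOR substrate, had 29.6, 32.3 and 59.6 CPM in concave and 33.9, 40.6 and 48.9 CPM in convex libraries, against 49.3, 67.95 and 58.1 CPM in flat ones. The convex group of EIF4EBP1 lay just below the flat one, and its concave group overlapped it (log2 fold change -0.53, SE 0.27, edgeR adjusted p = 0.841 for concave and -0.51, SE 0.27, edgeR adjusted p = 0.514 for convex). EIF4E2, a cap-binding relative that represses translation, had 73.8, 71.8 and 96.4 CPM in concave and 80.3, 78.3 and 78.6 CPM in convex libraries, against 87.8, 118 and 85.5 CPM in flat ones, with only the convex group clear of the flat one. EIF4E1B, an eIF4E relative known from oocytes, had 4.31, 3.25 and 7.06 CPM in concave and 4.68, 3.63 and 4.42 CPM in convex libraries, against 5.82, 4.84 and 5.604 CPM in flat ones, and again only the convex group was clear of it. EIF4E3 ranged from 9.42 to 12.4 CPM.

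Outside eIF3 and eIF4F, EIF1, which guards start codon choice, had 178, 153 and 221 CPM in concave and 166, 177 and 215 CPM in convex libraries, against 221, 305 and 224 CPM in flat ones. The highest concave value, 220.7 CPM, lay just below the lowest flat one, 221.1 CPM (concave against flat, log2 fold change -0.44, SE 0.20, unadjusted p = 0.0473, edgeR adjusted p = 0.841). EEF1A2 had 49.1, 24.6 and 46.3 CPM in concave and 47.8, 30.2 and 42.8 CPM in convex libraries, against 71.9, 59.4 and 50.3 CPM in flat ones, again with no overlap (concave against flat, log2 fold change -0.60, SE 0.28, edgeR adjusted p = 0.841). All 5 subunits of eIF2B, the factor that recharges eIF2 and the target of the integrated stress response, had log2 fold changes below 0 in both comparisons, from -0.37 to -0.10 for concave and from -0.39 to -0.098 for convex. All 6 members of the eIF5, eIF5A, eIF5B and eIF6 group also lay below 0 in both, with medians of -0.28 and -0.30. Both counts stand beside 51 of all 62 members below 0 in each comparison, and 48.4% and 49.2% of all genes. EIF5B, which joins the ribosomal subunits, had its highest value, 457 CPM, in flat 2, where the other 8 libraries lay between 225 and 292 CPM. The methyltransferase mRNAs EEF1AKMT1 and EEF1AKMT4 were also highest in flat 2, at 12.99 and 5.600 CPM, against at most 6.42 and 2.34 CPM elsewhere.

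Over all members, 51 of 62 log2 fold changes lay below 0 for concave against flat, where 48.4% of all tested genes did, and 51 of 62 for convex against flat, where 49.2% did. The member medians were -0.15 and -0.18, against 0.014 and 0.0068 for all 23075 genes. The 11 members above 0 in each comparison stand against 51.6% and 50.8% of all genes. Of the members 0 were called in either comparison (edgeR adjusted p under 0.05; 0.0% of all genes; DESeq2 and limma voom also called 0 members), and 4 had an unadjusted p under 0.05 for concave and 7 for convex, against 4.54% and 9.25% of all genes. With the replicate number as a block these were 10 and 12, where 2046 and 4222 of all 23075 genes were under 0.05, still with 0 called (smallest edgeR adjusted p = 0.506 and 0.264). The concave and convex comparisons share their flat libraries and are not independent of each other.

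Groups without overlap tell the same counts in CPM. For convex against flat, 17 of 62 members had all convex values below all flat ones, where 7.76% of all tested genes did, and 2 had all above, where 8.91% did. Among the 17 were 6 of the 14 eIF3 mRNAs and 4 TOP list members, EEF1A1, EEF1B2, EIF3E and EIF3H, and the 2 above were EIF4A1 and EEF1D. For concave against flat, 6 members lay below without overlap, where 2.96% of genes did: EEF1A1, EEF1A2, EEF1AKMT2, EIF1, EIF2B3 and EIF3E. EIF4A1 alone lay above, where 3.78% of genes did.

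Several libraries moved the sizes. Without flat 2, 57 of 62 members lay below 0 for concave and 55 for convex, where 49.4% and 50.7% of all genes did, with medians of -0.12 and -0.15. Without concave 3 the concave median was -0.28, and without concave 2 it was -0.095. The convex median ran from -0.24 without convex 3 to -0.15 without flat 2, and was -0.23 without flat 1 and without flat 3. Within replicate numbers the median member difference on the log2(CPM + 0.5) scale was -0.20, -0.33 and 0.032 for concave minus flat in numbers 1, 2 and 3. Of 62 members 53, 45 and 26 were lower, where 50.8%, 48.7% and 50.5% of all genes were, so the concave difference was not seen in number 3. For convex minus flat the member median was -0.15, -0.29 and -0.10, in each number the same way. Here 47, 46 and 51 of 62 were lower, where 51.4%, 49.5% and 49.3% of all genes were. The members' log2 fold changes also went with transcript length (Spearman's rho 0.39 for concave and 0.40 for convex over 62 genes that share the same libraries, a description only). With a correction for length 49 and 50 of 62 lay below 0, where 49.9% and 51.5% of all genes did, with member medians of -0.13 in both. The part of length and of flat 2 in the difference was not tested further.

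TOP list members and the rest were compared by their medians. The median log2 fold change was -0.25 for the 8 TOP list members and -0.13 for the other 54 members for concave against flat, and -0.31 and -0.16 for convex against flat. The difference of medians was -0.12 for concave and ran from -0.22 without concave 1 to -0.0042 without concave 3, with -0.035 without flat 2. It was -0.15 for convex, and -0.19 to -0.099 with each library left out. The cytosolic ribosomal protein mRNAs, themselves TOP mRNAs, had medians of -0.62 and -0.75 in the same comparisons, and 1.03 in flat 2 alone as given above. Among the 49 members with a RefSeq entry, too few for a comparison, the 13 with a TOP start had medians of -0.19 for concave and -0.27 for convex, and the other 36 had -0.13 in both. Within the TOP list EEF1D stood above 0 in both comparisons, at 0.17 for concave and 0.48 for convex.

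**Figure D4:**
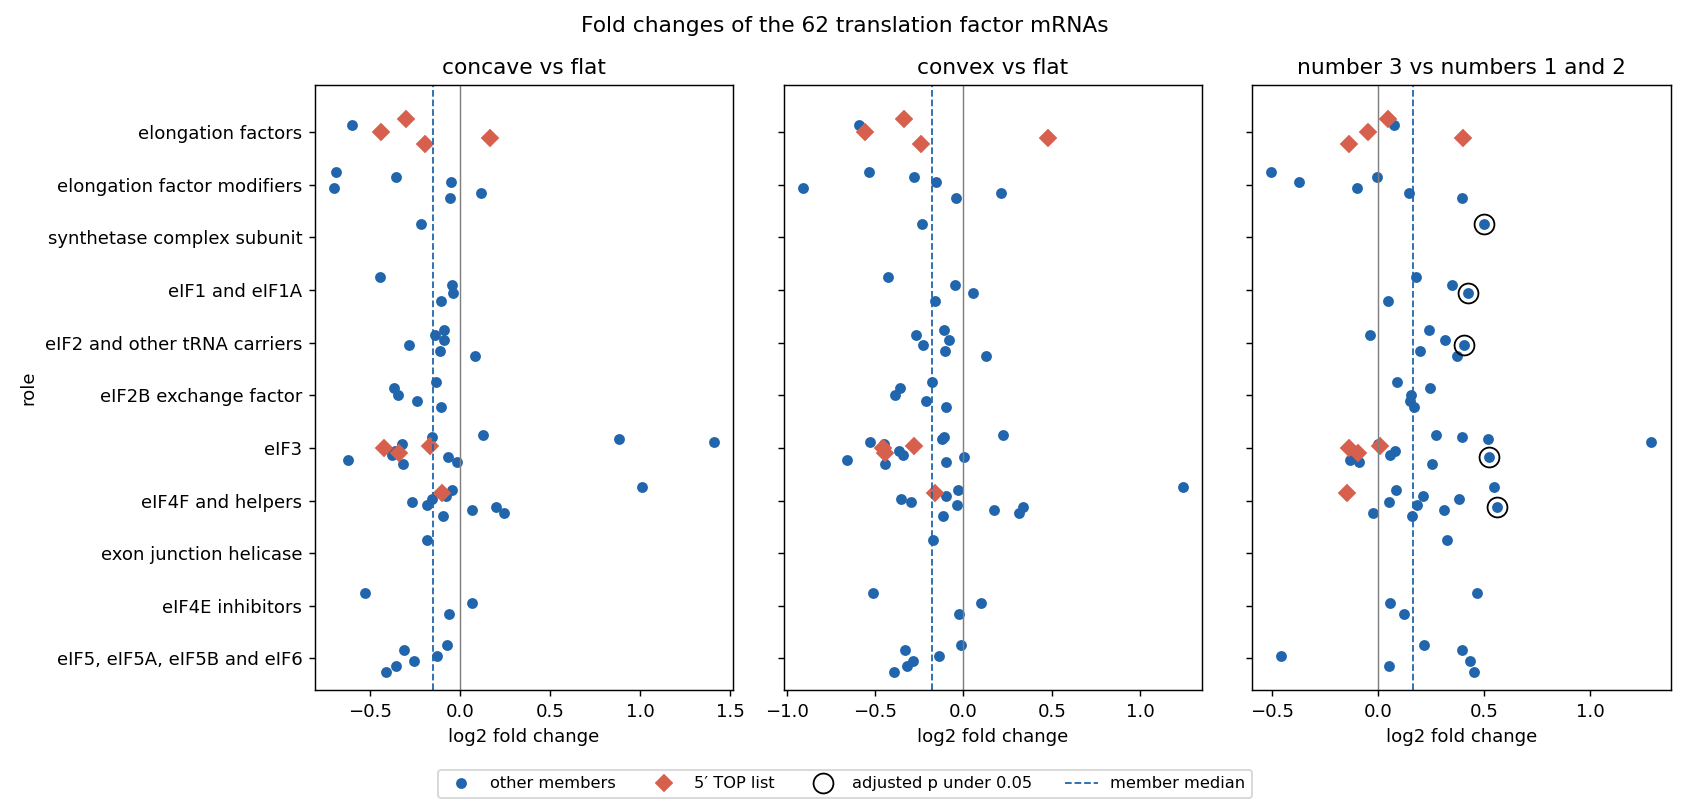
Log2 fold change of each member by role, for concave against flat, convex against flat and replicate number 3 against numbers 1 and 2; diamonds are TOP list members, the dashed line is the median of the 62 members, and circles mark an edgeR adjusted p under 0.05. Medians are -0.15, -0.18 and 0.16, and the 5 circled genes are all in the panel for number 3.

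Between concave and convex plates the direction of the members changed with the replicate number. Of the 62 members 29 lay above 0 and 33 below (50.7% of all genes below), the median was -0.0053, and 0 were called (edgeR; 0.0% of all genes; DESeq2 and limma voom also called 0 members). EIF3C, with a log2 fold change of 1.01 (SE 0.37), and EIF3CL, with 1.94 (SE 0.84), had unadjusted p of 0.0202 and 0.0436 (edgeR adjusted p = 1.00 for each), where 0.282% of all genes had an unadjusted p under 0.05. The next members were EIF2D at 0.13, and on the lower side EEF1D at -0.31, EIF4E3 at -0.15 and EIF4A1 at -0.24. Within numbers 1, 2 and 3 the members' median difference, concave minus convex on the log2(CPM + 0.5) scale, was -0.10, -0.059 and 0.11, with 40, 46 and 16 of 62 lower, where 51.2%, 51.6% and 51.8% of all genes were. Without concave 3, 14 members lay above 0 and 48 below, with a median of -0.10, and without concave 1, 43 above and 19 below, with a median of 0.077. No member was free of overlap between these shapes, where 1.49% of genes were higher and 2.08% lower in concave without overlap. An F test among the 3 shapes called 0 members (3 at an unadjusted p under 0.05, against 3.89% of all genes; DESeq2 and limma voom called 0 members).

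The second question concerned the replicate numbers, which were known from earlier results to separate libraries numbered 3 from the rest; no p-value allows for that choice. With plate shape as a term, 5 members were called higher in number 3 and 0 lower, that is 8.06% of the members, where 8.79% of all genes were called higher and 9.14% lower. EIF3J, an eIF3 subunit, had 106, 104 and 109.9 CPM in concave, convex and flat number 3, against 61.1 to 83.6 CPM in the 6 libraries numbered 1 and 2. The groups did not overlap, and the log2 fold change was 0.52 (SE 0.10, edgeR adjusted p = 0.0101). EIF1AX, the X-linked eIF1A that scans for the start codon, had 321, 349 and 365 CPM in concave, convex and flat number 3, against 224 to 288 CPM, and did not overlap either (log2 fold change 0.42, SE 0.11, edgeR adjusted p = 0.0291).

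EIF4G1 (chromosome 3, 184314495 to 184335358), the main scaffold of eIF4F, had 935, 949 and 889 CPM in concave, convex and flat number 3, against 439 to 801 CPM in numbers 1 and 2 (log2 fold change 0.56, SE 0.17, edgeR adjusted p = 0.0478). Its groups did not overlap. EIF2S2, the beta subunit of eIF2, had 227, 219 and 235 CPM, against 144 to 229 CPM, and EEF1E1, a small subunit of the multi-synthetase complex, had 20.6, 18.003 and 19.4 CPM, against 9.29 to 20.9 CPM. In both genes it was flat 2 that reached the level of number 3, and the log2 fold changes were 0.40 (SE 0.12, edgeR adjusted p = 0.0467) and 0.50 (SE 0.14, edgeR adjusted p = 0.0385).

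**Figure D5:**
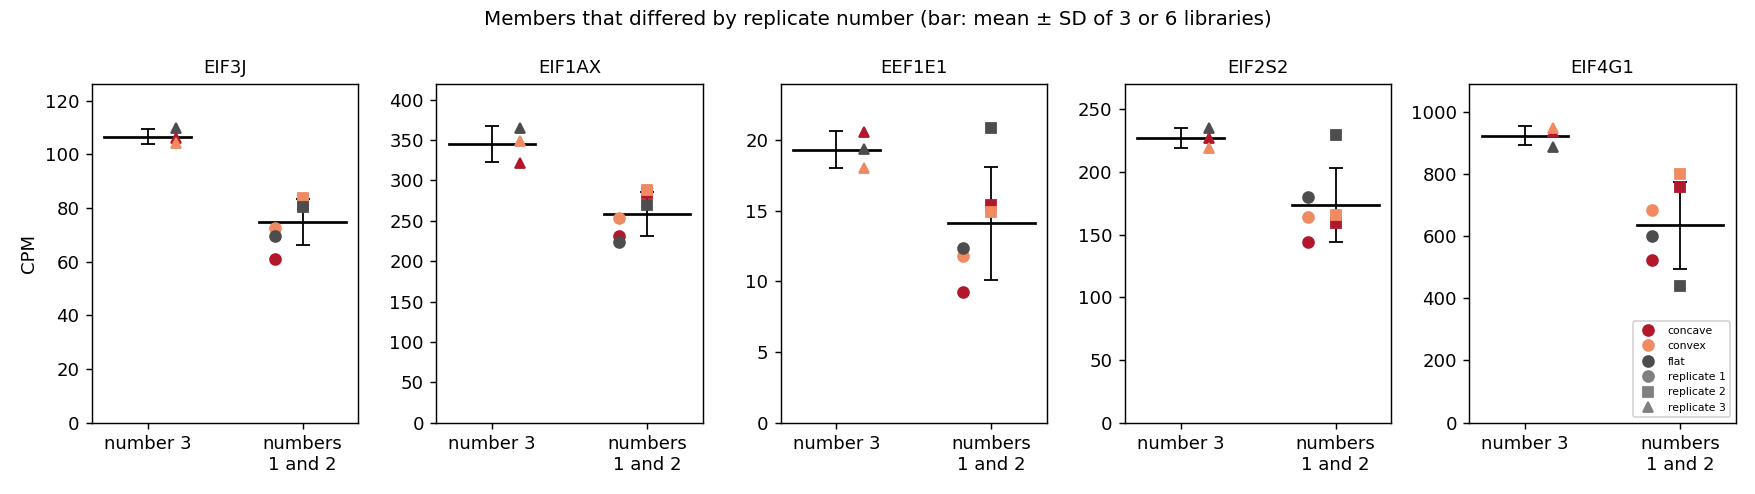
CPM of the 5 members called between replicate number 3 and numbers 1 and 2; each point is 1 library, its colour the plate shape and its symbol the replicate number, bars are the mean ± SD of 3 and of 6 libraries, and axes start at 0. Number 3 is clear of the other libraries in EIF3J, EIF1AX and EIF4G1, and flat 2 overlaps it in EEF1E1 and EIF2S2.

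Most other members also lay above 0 for number 3, 48 of 62 where 50.9% of all genes did, with a median of 0.16 against 0.0092 for all genes. With library size alone in place of TMM, 36 of 62 lay above 0 with a median of 0.062, all genes having moved to -0.092. Without concave 3, 37 of 62 lay above 0, with a median of 0.063. Without overlap, 10 members were higher (11.7% of genes), among them EIF2S1, EIF2S3, EIF4E and EIF5, and 2 were lower (12.5% of genes). Those 2 were EEF1AKMT1, with 4.56, 4.56 and 5.17 CPM in number 3 against 5.26 to 12.99 CPM, and EIF5A2, with 3.003, 3.64 and 3.95 CPM against 4.28 to 5.497 CPM (log2 fold change -0.46, SE 0.16, edgeR adjusted p = 0.0806). EIF3CL had the largest log2 fold change of all members, 1.29, carried by concave 3. EEF1AKMT3 followed EIF5A2 on the lower side, with 3.23, 2.89 and 2.83 CPM against 3.11 to 4.53 CPM (log2 fold change -0.38, SE 0.16, edgeR adjusted p = 0.146).

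TOP list members lay lower than the others for number 3. Their median log2 fold change was -0.070, against 0.19 for the other 54 members. It was -0.23 without concave 3 and lay above 0 without flat 2, at 0.018, and without flat 3, at 0.042. The difference of the medians was -0.26, and it ran from -0.33 to -0.18 with each library left out. Of the TOP list EEF1D had the largest value, 0.40 (edgeR adjusted p = 0.0693), and EIF4B the lowest, -0.15 (edgeR adjusted p = 0.393). The cytosolic ribosomal proteins had a median of -0.21. By library, the TOP list's median log2 deviation was 0.035, -0.18 and -0.016 in concave, convex and flat number 3. Numbers 1 and 2 spanned -0.21 to 0.29, so the libraries overlapped. The pluripotency and neural ectoderm sums given above also differed in number 3, and their relation to these values was not tested.

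The number of calls for number 3 changed with each library left out. There were 0 calls when concave 1 or convex 3 was left out, 1 each for concave 3, convex 1, convex 2 and flat 1, 3 for concave 2, 8 for flat 3 and 16 for flat 2. Over all genes the calls likewise ran from 1077 of 23713 without convex 3 to 5575 of 23755 without flat 2. The log2 fold changes stayed above 0 throughout, at 0.46 to 0.57 for EIF3J, 0.33 to 0.45 for EIF1AX, 0.33 to 0.59 for EEF1E1, 0.29 to 0.48 for EIF2S2 and 0.43 to 0.66 for EIF4G1. EIF3J kept its call except without concave 1 (edgeR adjusted p = 0.0576) and without convex 3 (edgeR adjusted p = 0.0661), and the other 4 lost theirs in 7 of the 9 each. An F test among the 3 numbers called 2 members, EIF3J (edgeR adjusted p = 0.0217) and EEF1E1 (edgeR adjusted p = 0.0306), where 11.8% of genes were called. At an unadjusted p under 0.05 it had 16 members, against 28.4% of genes.

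Between numbers 2 and 1 no member was called (edgeR; 0.0% of all genes; DESeq2 and limma voom also called 0 members; 4 at an unadjusted p under 0.05, against 8.54% of genes). Of the 62 members 39 lay above 0, where 47.9% of genes did, with a median of 0.11, or 0.035 without flat 2. EEF1E1 had the smallest p, with 15.4, 14.9 and 20.9 CPM in concave, convex and flat number 2, against 9.29, 11.8 and 12.4 CPM in number 1 (log2 fold change 0.61, SE 0.16, edgeR adjusted p = 0.470). EEF1A2 lay lower in number 2, with 24.6, 30.2 and 59.4 CPM against 49.1, 47.8 and 71.9 CPM (log2 fold change -0.62, SE 0.20, edgeR adjusted p = 0.520). In each shape EEF1E1 was higher and EEF1A2 lower in number 2. The members that followed were EIF6, which keeps the ribosomal subunits apart, at 0.40 and EIF3J at 0.27. On the lower side they were EIF2S3B, a copy of EIF2S3, at -0.54 and EIF3L, an eIF3 subunit, at -0.30. EIF2S3B averaged 19.3 CPM against 449 CPM for EIF2S3, and as reads of copies may be counted for either, its row is uncertain.

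Of 46 further genes of the translation pathway, chosen with earlier results known, edgeR called 0 between shapes (0.0% of all genes). For concave and convex against flat, 2 and 4 of the 46 had an unadjusted p under 0.05, where 4.54% and 9.25% of all genes did. For concave against flat 27 of 46 lay below 0 (48.4% of all genes), and for convex 26 of 46 (49.2% of all genes). RACK1, a ribosome-bound scaffold, had the smallest p in both, with 563, 487 and 613 CPM in concave and 534, 539 and 499 CPM in convex libraries, against 704, 1005 and 583 CPM in flat ones. Its flat mean was drawn up by flat 2. TPT1, itself a TOP mRNA, the mTOR partner MLST8 and the S6 kinase RPS6KB2 had log2 fold changes of -0.51, -0.39 and -0.42 for concave and -0.63, -0.51 and -0.45 for convex. TSC2, an inhibitor of mTOR signalling, had 126, 148 and 144 CPM in concave and 144, 145 and 145 CPM in convex libraries, against 121, 115 and 121 CPM in flat ones, with no overlap (log2 fold change 0.22 and 0.28, edgeR adjusted p = 0.841 and 0.513). Its partner TSC1 lay at 0.26 and 0.27. MTOR itself had 160, 182 and 150 CPM in concave and 179, 182 and 175 CPM in convex libraries. In flat libraries it had 142, 101 and 180 CPM, so the shapes overlapped, and flat 2 was its lowest library. Whether mTOR signalling differed between shapes was not tested. Between numbers 2 and 1 no gene of the list was called by edgeR (0.0% of all genes), and 1 had an unadjusted p under 0.05 (8.54% of all genes). The smallest p was that of MYC, with a log2 fold change of 0.57.

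In number 3, 10 of the 46 were called higher, where 8.79% of all genes were, and 2 lower, where 9.14% were. MYC, a transcription factor that drives many translation genes, had 23.4, 26.6 and 15.5 CPM in concave, convex and flat number 3, against 5.91 to 13.4 CPM in numbers 1 and 2 (log2 fold change 1.24, SE 0.18, edgeR adjusted p = 0.00237). LARP1, which binds TOP mRNAs, rose by 0.66 (SE 0.14, edgeR adjusted p = 0.0131) on the log2 scale and the eIF2 kinase EIF2AK3 by 0.59 (SE 0.13, edgeR adjusted p = 0.0154). The other genes called higher were PABPC4, which binds poly(A) tails, the release factors ETF1 and GSPT1, the ribosome recycling and rescue factors ABCE1 and PELO, the mTORC1 inhibitor AKT1S1 and the mitochondrial elongation factor GFM1, at 0.37 to 0.60. MKNK1, a kinase of eIF4E, had 5.67, 5.28 and 6.23 CPM in number 3, against 10.9 to 12.8 CPM (log2 fold change -1.06, SE 0.13, edgeR adjusted p = 0.00129). PDCD4, an inhibitor of eIF4A, had 23.4, 20.8 and 24.1 CPM, against 34.4 to 47.5 CPM (log2 fold change -0.87, SE 0.11, edgeR adjusted p = 0.00171).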

How the data were processed

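Poly(A) RNA was sequenced from 9 strand-specific libraries, per the labels' protocols. The authors deposited raw counts per gene; HISAT2, featureCounts and GRCh38 are named in the submitters' processing notes, while versions, annotation, strand and counting settings were not given in the sources used here. From the counts, edgeR 4.0.16 (R 4.3.3) was run: filterByExpr left 23075 genes, libraries were scaled by TMM, and quasi-likelihood fits had plate shape, or plate shape plus replicate number, as terms. P-values are two-sided, adjusted by Benjamini-Hochberg over all genes of a comparison, and called under 0.05. Members, lists and tests were chosen with earlier results of these data known. Named genes were the TOP list, paralog groups, called members or the 3 smallest p per direction, extremes of level, and called or leading pathway genes; others were named after their values were seen. Gene types, lengths and exons are from GENCODE v29, which may not be the authors' annotation. Replicates differed by more than sampling noise (chi-square per degree of freedom 19.7 to 284.6). Libraries of the same number deviated together with r of 0.51, 0.49 and 0.70 between convex and flat, 0.71, 0.41 and 0.71 between concave and convex, and 0.49, 0.034 and 0.40 between concave and flat, so by a minimum of 0.1 the numbers pair the first 2 of these pairs of shapes. Alternatives were other scalings, no filter, DESeq2 1.42.0, limma 3.58.1 voom, a length correction (lowess, span 0.3), the replicate block, no shape term, a list by RefSeq starts and each library left out; leaving out flat 2 with the length correction was added after seeing the data.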

Additional observations from a re-analysis of the deposited data

How the results depend on the processing

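Counts of called members were 0 between shapes under all alternatives run. For number 3 against numbers 1 and 2 the 5 calls (4137 of all 23075 genes) became 1 (4294) with library size only, 10 (5033) with DESeq2, 14 (5361) with the length correction, 18 (6359 of 23755) with the length correction and without flat 2, and 0 to 16 (1077 to 5575) with each library left out. The 2 calls (2714) of the F test among numbers became 1 (2877) with library size only, 6 (4087 of 41037) without the filter, 7 (4465) with DESeq2, 12 (4216) with the length correction, 17 (5875) with the length correction and without flat 2, and 0 to 13 (352 to 4999) with each library left out. Between numbers 2 and 1 the length correction without flat 2 gave 1 call in place of 0. The member median for concave against flat ran from -0.28 to -0.095 with each library left out. EIF3CL ran from -0.79 to 1.89 for concave against flat, the reversal being without concave 3. The causes were not tested beyond the construction of these settings. With the replicate block, the pairing of numbers gave member medians of -0.16 for concave and -0.19 for convex against flat and changed no call between shapes. With 3 libraries a group, the standard error of a TOP list member's log2 fold change against flat was 0.14 to 0.23. Differences of about that size cannot be told from no difference, and clearly larger ones were not called either. For convex against flat EEF1B2 stood at -0.56 and EIF4A1 at 1.24, each with an edgeR adjusted p of 0.513. The 0 calls between shapes therefore do not show that the members were unchanged.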
